A study of Mus musculus with 7 samples.

Results

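Border-associated macrophages are the resident macrophages of the brain's interfaces: the meninges, the spaces around vessels and the choroid plexus. They lie outside the parenchyma, where microglia live, and are known for taking up proteins, lipids and debris from blood and cerebrospinal fluid with scavenger receptors. Because they carry CD11b, as microglia do, a CD11b bead enrichment retains both. The 9 genes described here, Mrc1, Cd163, Lyve1, Pf4, Cbr2, F13a1, Folr2, Stab1 and Dab2, are commonly used to mark these cells, and were taken from the count table by gene symbol. All 9 were found among 55401 gene identifiers, and all 9 were among the 19199 genes that passed the filter on low counts.

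The 7 libraries came from CD11b-enriched cells of the dorsal hippocampus of C57BL/6 mice, 6 to 8 weeks old and described as male. All mice were injected in the dorsal dentate gyrus with AAV-RAM-Cre, a virus whose synthetic activity-dependent RAM promoter drives Cre in neurons recruited by an experience. The control group of 4 libraries, EYFP 1 to 4, also received AAV-Dio-EYFP, and the group of 3 libraries, ATG7 1 to 3, received AAV-Dio-Atg7-Flag, a Cre-dependent virus for Flag-tagged ATG7, an enzyme of autophagosome formation. The transgene was thus directed at neurons and not at the CD11b-enriched cells that were sequenced, and whether a library is 1 mouse or a pool is not given in the sources used here, so p-values measure the spread between these libraries. The comparison asked how the enriched cells differ when engram neurons overexpress ATG7.

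Total counts ran from 35934210 to 55217119 per library, and 3 counts, taken as the floor, were worth 0.0543 to 0.0835 CPM, the count scaled to library size. The Atg7 gene gave 35.6 ± 1.68 CPM in the control libraries (SD, n = 4) and 34.9 ± 2.76 CPM in the ATG7 libraries (SD, n = 3), which does not check the labels since the transgene was in other cells. The library labelled EYFP 3 had 938.5 CPM of Xist, against 0.151 to 0.574 CPM in the rest, which goes against the described male sex. It also held 27.6 CPM of the Y-linked gene Ddx3y, against 121.1 to 168.7 CPM in the rest. The difference of each marker is therefore also given without this library. The 13 homeostatic microglia genes used here were detected in every library at a summed 25849 to 31884 CPM. The libraries also held much choroid plexus RNA. The 12 epithelial genes of that tissue summed to 47380 to 73752 CPM, above the sum of the microglia genes in every library. Most of the choroid plexus sum came from Ttr and Enpp2, at means of 37174 and 18398 CPM over the libraries. As mean log2 CPM the order was reversed in every library. The choroid plexus genes were then at 9.09 to 9.74 and the microglia genes at 10.52 to 10.87. Of the genes tested, 145 or 0.755% passed a two-sided edgeR quasi-likelihood test at a p under 0.05 after Benjamini-Hochberg adjustment. That number was 164 without EYFP 3, 277 without EYFP 1, 94 without EYFP 2, 30 without EYFP 4, 28 without ATG7 2 and 30 without ATG7 3.

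None of the 9 markers passed this test in either direction, where 0.688% of all genes were called higher and 0.0677% lower in ATG7 (edgeR, 0.755% in all). Their log2 fold changes, ATG7 minus EYFP, lay between -0.28 for Cbr2 and 0.12 for Folr2, with 4 above and 5 below 0, where 50.8% of all genes were below 0. The median was -0.03, beside -0.004 over all genes tested. At an unadjusted p under 0.05 there was 1 marker, Cbr2, which was lower in ATG7, where 5.71% of all genes reached that level in the same direction and 6.27% in the other. DESeq2 and limma-voom also called 0 of 9, with 1 marker each at an unadjusted p under 0.05. Leaving out any single library, EYFP 3 included, gave 0 of 9 as well. The 95% interval of the fold change, taken for each gene alone, lay within 1.5-fold in either direction for all 9 markers, so that in this fit a larger change was outside the interval of each. In bulk RNA, fewer cells of a type and less RNA per cell cannot be told apart.

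**Figure D1:**
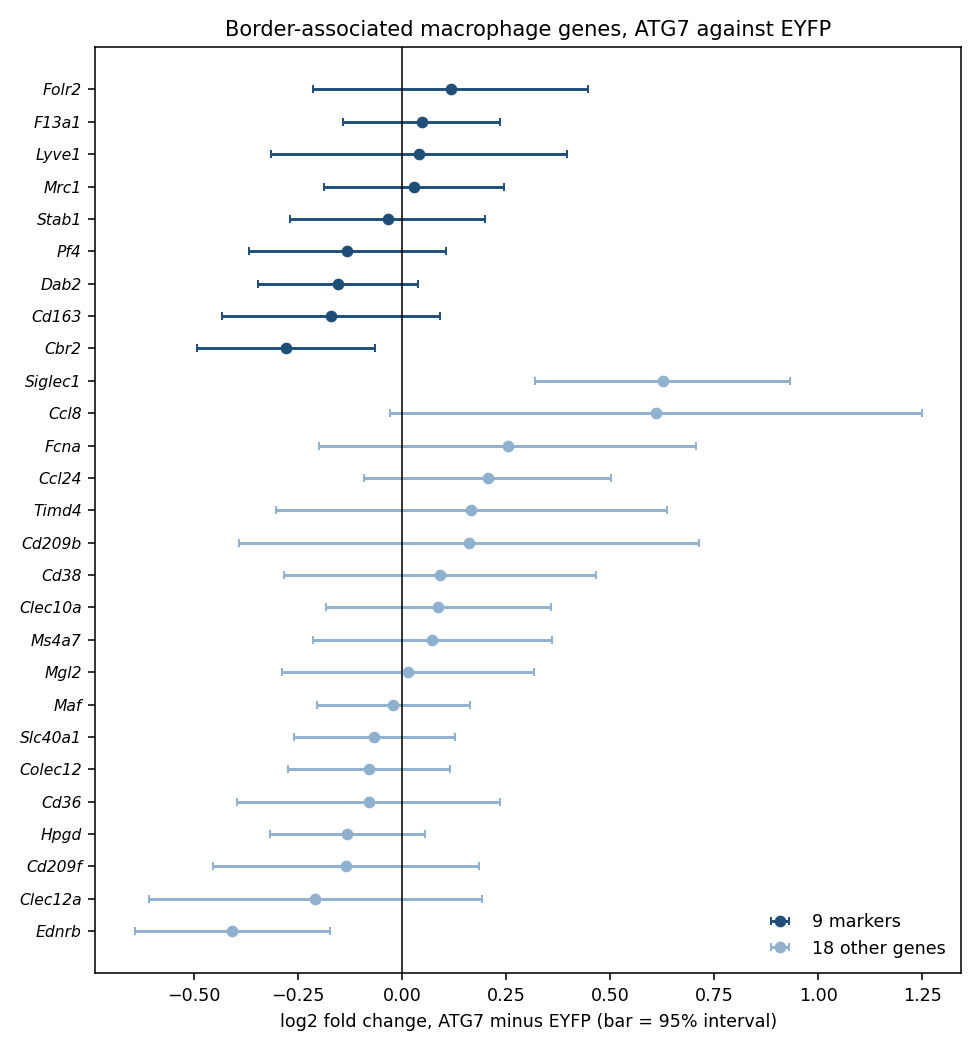
Log2 fold changes (ATG7 minus EYFP, x axis) of the 9 markers and of 18 other genes of border-associated macrophages, 1 gene per line, with bars for 95% intervals from the edgeR fit over 4 EYFP and 3 ATG7 libraries. The intervals of 8 of the 9 markers cross 0 and that of Cbr2 does not, although its adjusted p was 0.274.

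The promoters of Mrc1, Cd163 and Stab1 are shown because these are the most used receptors of the group and the marker with the highest level. Each window covers 250 bases before to 50 after the RefSeq start of the gene, on GRCm38.p6, in the direction of transcription. The positions are chr2:14229164-14229463 on the plus strand for Mrc1, chr6:124304401-124304700 on the plus strand for Cd163 and chr14:31168592-31168891 on the minus strand for Stab1. Capitals mark GAGGAA, a core of sites of the myeloid factor PU.1, and TGCTGA, a half-site of the macrophage factor MAF, on either strand.
Mrc1: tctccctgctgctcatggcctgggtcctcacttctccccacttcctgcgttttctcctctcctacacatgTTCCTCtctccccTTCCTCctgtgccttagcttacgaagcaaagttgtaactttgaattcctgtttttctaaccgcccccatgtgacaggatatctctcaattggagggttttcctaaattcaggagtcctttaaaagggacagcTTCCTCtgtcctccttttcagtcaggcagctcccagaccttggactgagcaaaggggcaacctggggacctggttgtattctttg
Cd163: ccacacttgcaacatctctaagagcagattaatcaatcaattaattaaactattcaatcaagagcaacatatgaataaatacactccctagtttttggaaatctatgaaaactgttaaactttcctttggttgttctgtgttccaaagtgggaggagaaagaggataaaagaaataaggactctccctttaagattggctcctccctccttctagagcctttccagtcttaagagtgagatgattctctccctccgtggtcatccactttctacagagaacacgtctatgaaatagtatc
Stab1: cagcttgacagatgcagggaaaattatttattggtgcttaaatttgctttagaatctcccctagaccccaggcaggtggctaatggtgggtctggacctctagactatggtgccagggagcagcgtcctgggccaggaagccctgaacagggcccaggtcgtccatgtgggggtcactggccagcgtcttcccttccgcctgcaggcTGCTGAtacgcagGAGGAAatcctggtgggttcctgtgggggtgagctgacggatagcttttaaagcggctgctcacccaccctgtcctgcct
The Mrc1 window holds GAGGAA 3 times, with first bases at -180, -167 and -35 from the start. The Stab1 window holds 1 match of each motif, TGCTGA at -43 and GAGGAA at -30. The Cd163 window holds neither. RefSeq gave 11 such windows for 8 of the 9 markers, Lyve1 being the one without, and no match of one motif overlapped another match. GAGGAA was found in 8 of the 11 windows, from 6 genes (Cbr2, Dab2, F13a1, Mrc1, Pf4 and Stab1), and in 28.3% of 32851 windows of the same length. TGCTGA was found in 5 of the 11, from 4 genes (Cbr2, Dab2, Folr2 and Stab1), and in 19.5% of all windows. These matches are letters in a window and describe no binding.

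The receptors are described first, with gene positions from GENCODE M21 on GRCm38. Mrc1 (chr2:14229392-14332057, plus strand) encodes the mannose receptor CD206, which takes up glycoproteins. It stood at 284.8, 290.0, 273.7 and 249.2 CPM in EYFP 1 to 4 and at 245.6, 274.8 and 319.1 CPM in ATG7 1 to 3. The ATG7 libraries held both the lowest and the highest value, and the groups overlapped. On the log2 scale ATG7 minus EYFP was 0.03 ± 0.0987 (SE, 95% interval -0.19 to 0.25, edgeR adjusted p = 0.946). ATG7 3, the library highest in Mrc1, was also highest in the summed level of 12 monocyte and neutrophil genes, 414.0 CPM against 193.1 to 273.4 CPM in the EYFP libraries and 208.5 and 268.7 CPM in the other ATG7 libraries. Fn1 alone made up 248.1 of the 414.0 CPM. ATG7 3 was also highest in the mean of 18 other border macrophage genes, at 4.40 log2 CPM against 4.03 to 4.24 in the rest. As a sum, these 18 genes were highest in EYFP 1, at 1282 CPM beside 1278 CPM in ATG7 3. Not all of them peaked in ATG7 3: Hpgd was highest in EYFP 3 and Maf in EYFP 1. ATG7 3 was highest in the summed endothelial and mural genes, at 1198 CPM. The part of any of these cells in the Mrc1 value was not tested, and without ATG7 3 the log2 fold change was -0.08. Without EYFP 3 it was 0.02.

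Cd163 (chr6:124304656-124330527, plus strand) encodes the scavenger receptor for haemoglobin bound to haptoglobin. Its values were 116.6, 102.2, 120.5 and 81.2 CPM in EYFP 1 to 4, and 97.8, 90.1 and 92.2 CPM in ATG7 1 to 3. The EYFP libraries spread on both sides of the ATG7 libraries, which lay close together. ATG7 less EYFP came to -0.17 ± 0.119 on the log2 scale (SE, 95% interval -0.43 to 0.09, edgeR adjusted p = 0.640), and it was -0.10 without EYFP 3 and -0.28 without EYFP 4, the library lowest in Cd163 (edgeR adjusted p = 0.354).

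Lyve1 (chr7:110850607-110863239, minus strand) encodes a hyaluronan receptor that lymphatic endothelium also carries. It was at 49.3, 38.5, 60.5 and 40.0 CPM in EYFP 1 to 4, and at 56.5, 43.1 and 45.7 CPM in ATG7 1 to 3. With a coefficient of variation (CV) of 17.4% over the 7 libraries it varied most of the 9 markers, and its groups overlapped. The difference, ATG7 minus EYFP, was 0.04 ± 0.159 in log2 units (SE, 95% interval -0.32 to 0.40, edgeR adjusted p = 0.954). Leaving out EYFP 3, the library highest in Lyve1, moved it to 0.18 (edgeR adjusted p = 0.628, and up to 0.996 under the other alternatives).

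Stab1 (chr14:31139013-31168641, minus strand) encodes stabilin-1, a large scavenger receptor of macrophages and of sinusoidal endothelium. Its counts were the highest of the markers, at 923.7, 795.2, 1063 and 843.8 CPM in EYFP 1 to 4, and 863.7, 931.8 and 858.9 CPM in ATG7 1 to 3. All 3 ATG7 libraries lay inside the EYFP range. On the log2 scale ATG7 minus EYFP was -0.03 ± 0.107 (SE, 95% interval -0.27 to 0.20, edgeR adjusted p = 0.938), and 0.05 without EYFP 3. The 13 homeostatic microglia genes were likewise highest in EYFP 3, at a mean of 10.87 log2 CPM against 10.52 to 10.80 in the other libraries, and the share of the Stab1 counts that came from microglia was not tested. Stab1 overlaps the gene Nt5dc2 on the opposite strand, which was at a mean of 46.4 CPM, and whether strand was used in counting is not given in the sources used here.

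Folr2 (chr7:101839988-101857194, minus strand) encodes folate receptor beta and was the least abundant marker. It was at 4.40, 5.25, 4.41 and 4.91 CPM in EYFP 1 to 4, from 161 to 241 counts, and at 4.50, 5.21 and 5.72 CPM in ATG7 1 to 3, from 180 to 286 counts. The groups overlapped, with the highest value in ATG7 3. ATG7 less EYFP came to 0.12 ± 0.150 on the log2 scale (SE, 95% interval -0.21 to 0.45, edgeR adjusted p = 0.826). It was 0.03 without ATG7 3, 0.20 without ATG7 1 and 0.08 without EYFP 3. Counting error alone gives a CV of 6.76% at this depth, beside the 10.3% observed over the 7 libraries. An antisense gene, Gm10602, overlaps Folr2 and had a mean of 2.62 CPM, so that reads of either could be assigned to the other if strand was not used.

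Dab2 (chr15:6299788-6440712, plus strand) encodes a clathrin adaptor that brings receptors of the LDL receptor family into the cell. It was at 221.5, 268.9, 215.3 and 235.9 CPM in EYFP 1 to 4, and at 213.8, 211.3 and 209.6 CPM in ATG7 1 to 3. Every ATG7 library lay below every EYFP library, by a gap that was small beside the spread of the EYFP group. Dab2 was the only 1 of the 9 markers whose groups did not overlap, where 11.2% of all genes tested did not. The difference, ATG7 minus EYFP, was -0.15 ± 0.0873 in log2 units (SE, 95% interval -0.35 to 0.04, edgeR adjusted p = 0.541). The sum of 12 choroid plexus genes had the same highest libraries, EYFP 2 followed by EYFP 4, though Kcne2 was highest in ATG7 1 and Prlr in EYFP 3. That summed level was 55909 to 73752 CPM in EYFP and 47380 to 62337 CPM in ATG7. Unlike those of Dab2, the groups of this sum overlapped, with ATG7 1 above EYFP 1 and EYFP 3. The part of that tissue in the Dab2 value was not tested. The log2 fold change of Dab2 was -0.09 without EYFP 2 and -0.20 without EYFP 3.

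Of the remaining markers, which encode secreted proteins and enzymes, Cbr2 had the largest difference. Cbr2 (chr11:120729489-120732114, minus strand) encodes a carbonyl reductase. Its values were 35.3, 39.6, 40.9 and 33.0 CPM in EYFP 1 to 4, and 28.9, 29.1 and 34.1 CPM in ATG7 1 to 3. ATG7 1 and ATG7 2 lay below all EYFP libraries and ATG7 3 lay above EYFP 4, so that the groups overlapped in a single pair of libraries. On the log2 scale ATG7 minus EYFP was -0.28 ± 0.0973 (SE, 95% interval -0.49 to -0.06), and all 3 ATG7 libraries were below the EYFP mean. It did not pass after adjustment over all genes (edgeR adjusted p = 0.274, and 0.153 to 0.583 over 14 alternatives), and the log2 fold change was -0.24 without EYFP 3.

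Pf4 (chr5:90772435-90773383, plus strand) encodes the chemokine CXCL4, which platelets store and which border macrophages also transcribe. It was at 23.7, 26.9, 22.4 and 21.2 CPM in EYFP 1 to 4, and at 19.3, 21 and 24.2 CPM in ATG7 1 to 3, with overlap of the groups. ATG7 less EYFP came to -0.13 ± 0.107 on the log2 scale (SE, 95% interval -0.37 to 0.10, edgeR adjusted p = 0.70). It was -0.16 without EYFP 3, -0.07 without EYFP 2, -0.06 without ATG7 1 and -0.23 without ATG7 3. Of the 7 platelet genes, Gp9 was at 8.82 to 19.4 CPM, Itga2b at 3.57 to 6.23 CPM and Gp1ba at 1.91 to 2.95 CPM. Tubb1 was at 0.177 to 0.673 CPM and the platelet chemokine gene Ppbp at 0.0443 to 0.392 CPM, while Gp1bb and Gp6 had totals of 0 and 4 counts over all libraries. Their sum was 20.4 to 26.3 CPM in EYFP and 15.01 to 20.6 CPM in ATG7, and the part of platelets in the Pf4 value was not tested.

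F13a1 (chr13:36867178-37050244, minus strand) encodes the A subunit of coagulation factor XIII, a transglutaminase that monocytes and platelets also make. It was at 94.3, 104.1, 114.0 and 90.0 CPM in EYFP 1 to 4, and at 102.9, 101.9 and 107.0 CPM in ATG7 1 to 3. All 3 ATG7 libraries lay inside the EYFP range and above its mean. The difference, ATG7 minus EYFP, was 0.05 ± 0.0861 in log2 units (SE, 95% interval -0.14 to 0.24, edgeR adjusted p = 0.888). It was 0.11 without EYFP 3. F13a1 had the smallest CV of the markers, 7.78% over the 7 libraries.

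**Figure D2:**
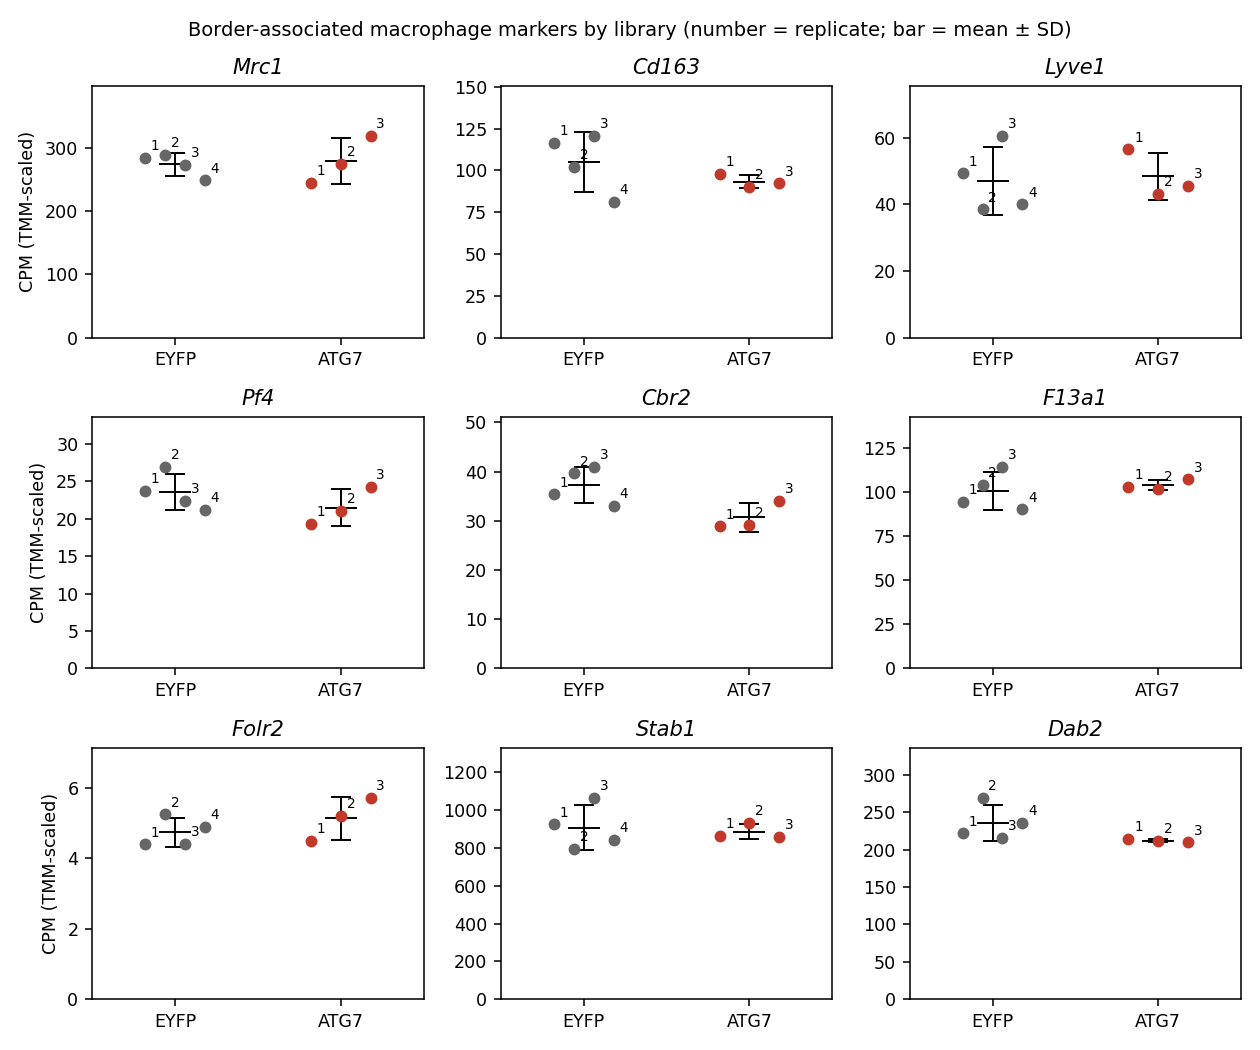
CPM (y axis, from 0) of each marker in the 4 EYFP and 3 ATG7 libraries, with the replicate number beside each point and bars for the mean and SD of the group. The groups overlap in 8 of the 9 panels, and in Dab2 the 3 ATG7 libraries sit between 209.6 and 213.8 CPM, below the lowest EYFP library at 215.3 CPM.

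Levels were compared between genes as CPM per kilobase of exon, with all annotated exons of a gene joined, which understates genes with long rarely used exons. Over the 7 libraries Stab1 was highest, at 87.2 ± 8.45 CPM per kb (SD, n = 7), followed by Mrc1 at 43.4 ± 3.94 (SD, n = 7). Pf4 came next at 31.4 ± 3.48, then Dab2 at 30.7 ± 2.89 and Cbr2 at 25.9 ± 3.53 CPM per kb (SD, n = 7 each). Cd163 was at 18.3 ± 2.61, Lyve1 at 16.3 ± 2.84 and F13a1 at 15.1 ± 1.18 CPM per kb (SD, n = 7 each). Folr2 was lowest, at 3.18 ± 0.328 CPM per kb (SD, n = 7). The ranges of Stab1 and Mrc1 did not meet each other or those of the lower genes, and neither did that of Folr2. From Pf4 to F13a1 the ranges of neighbours in the order overlapped. All genes were measured in the same libraries, so this overlap does not show that neighbours were alike within a library. Cbr2, for one, was above Cd163 in every library. Some genes further apart had separate ranges. The lowest values of Pf4 (26.7) and Dab2 (28.5) lay above the highest of Cd163 (22.1), Lyve1 (20.7) and F13a1 (16.9). The lowest of Cbr2 (21.7) lay above the highest of Lyve1 and F13a1. Per kilobase and as a geometric mean, the 9 markers stood at 4.52% ± 0.372 (SD, n = 4) of the 13 homeostatic microglia genes in EYFP and at 4.30% ± 0.397 (SD, n = 3) in ATG7. EYFP 2 had the highest such share, 5.07%, and ATG7 2 the lowest, 3.98%.

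**Figure D3:**
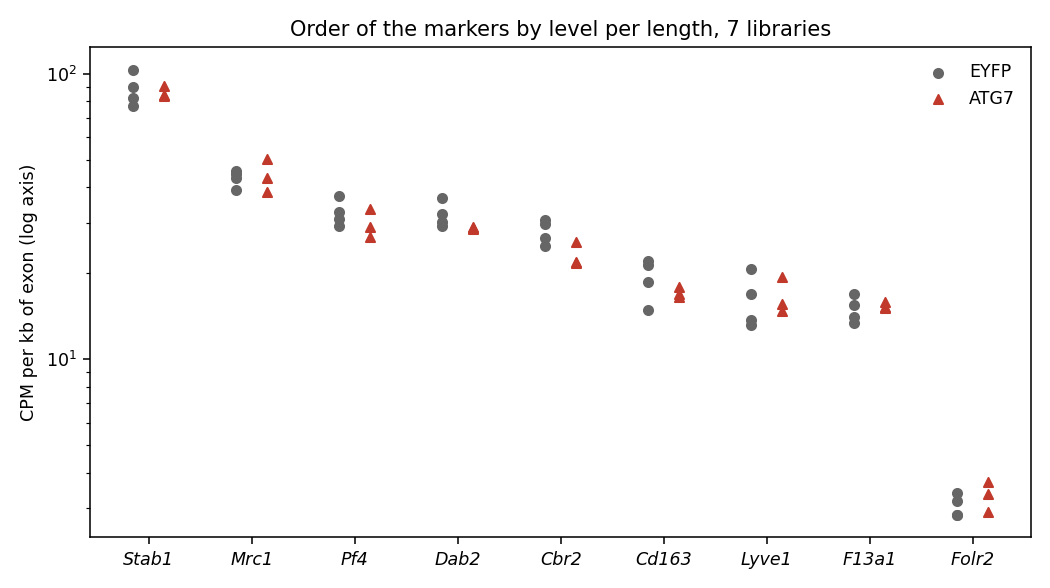
CPM per kilobase of exon (y axis, logarithmic) of each marker in every library, circles for EYFP and triangles for ATG7, in order of the mean over the 7 libraries. Stab1 and Mrc1 lie apart at the top and Folr2 at the bottom, near 3.18 CPM per kb, while the ranges of neighbours among the 6 genes between them overlap.

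The 9 markers did not share 1 order of the libraries. EYFP 3 was the highest library for 5 of them (Cd163, Lyve1, Cbr2, F13a1 and Stab1), EYFP 2 for Pf4 and Dab2, and ATG7 3 for Mrc1 and Folr2. ATG7 1 was the lowest library for 3 (Mrc1, Pf4 and Cbr2), while EYFP 2, the highest for Pf4 and Dab2, was the lowest for Lyve1 and Stab1. The median CV of the markers over the 7 libraries was 10.3%, and 2 of the 9 were below 9.11%, the median CV of the 11746 genes within the same range of levels. The genes outside the markers whose log2 CPM was most like the mean standardised level of the markers over the 7 libraries were Ldah and Gdpgp1 (Pearson r of 0.98 and 0.97). The next were Tpmt, Nhlrc1, Cd302, Hspa13, Arpc2, Rab10, Rpa3 and Adipor2, the last at an r of 0.94. They were ranked among 13394 protein-coding genes on 7 points, and none belongs to a list of cell markers used here. Of the 10, 4 were also ranked in the first 10 by deviations from the group means. The mean they resemble joins markers of unlike pattern: the median r between 2 markers was 0.22, and 13 of 36 pairs were below 0. An r of at least 0.5 with the mean of the others was reached by 5 of the 9 markers.

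Of 18 other genes of border-associated macrophages, 0 passed the edgeR test, with 10 log2 fold changes above and 8 below 0 and a median of 0.04. At an unadjusted p under 0.05 there were 2 of 18, Siglec1 higher and Ednrb lower, where 6.27% of all genes reached it as higher and 5.71% as lower. The groups did not overlap for 3 of the 18 (Siglec1, Ednrb and Ccl24), where 11.2% of all genes tested had no overlap. Siglec1 encodes sialoadhesin, a sialic acid receptor of macrophages that interferon induces. It was at 42.1, 36.4, 38.9 and 34.3 CPM in EYFP 1 to 4, and at 43.4, 64.7 and 67.2 CPM in ATG7 1 to 3. The groups did not overlap, though ATG7 1 lay just above EYFP 1. Its difference was 0.63 ± 0.138 log2 units (SE, edgeR adjusted p = 0.0836), and the call depended on the fit: the adjusted p was 0.00205 with DESeq2 and 0.0146 with edgeR without ATG7 1, and 0.0699 to 0.516 under the other alternatives.

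Ednrb, the endothelin receptor B gene, was at 43.7, 58.3, 41.8 and 48.3 CPM in EYFP 1 to 4, and at 36.5, 35.5 and 36.7 CPM in ATG7 1 to 3. Here too the groups did not overlap. EYFP 2 and EYFP 4 were the highest, as for Dab2 and the sum of the choroid plexus genes, a sum whose groups overlapped. ATG7 minus EYFP was -0.41 ± 0.107 log2 units (SE, edgeR adjusted p = 0.137, DESeq2 adjusted p = 0.0279, and 0.0328 in edgeR with no filter, with 0.0820 to 0.596 under the other alternatives). The chemokine gene Ccl8 differed by 0.61 ± 0.290 log2 units (SE, edgeR adjusted p = 0.446), on levels of 0.931 to 2.86 CPM, and by 0.26 without ATG7 3. Maf, a transcription factor of resident macrophages, differed by -0.02 ± 0.0837 (SE, edgeR adjusted p = 0.954). Clec10a and its close relative Mgl2, C-type lectins of these macrophages, had log2 fold changes of 0.09 and 0.01, values that are uncertain because the handling of reads shared by such copies is not given in the sources used here.

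Border macrophages fall into subsets with much or little MHC class II. All 9 genes of the MHC class II list had log2 fold changes above 0, with a median of 0.35, and 0 passed the edgeR test. An unadjusted p under 0.05 was reached by 7 of the 9, where 6.27% of all genes reached it in that direction. The 9 genes were measured in the same libraries, so the 7 are not independent, and the list was chosen with earlier results known. The mean of the list was 5.92 and 6.02 log2 CPM in ATG7 1 and ATG7 3. In ATG7 2 it was 5.54, inside the EYFP range of 5.21 to 5.67. The list includes Klra2 and Lilra5, which were taken as markers of the subset and are not class II genes. Lilra5 was among the 7 and Klra2 was not. Cd74, the invariant chain, was at 379.3, 334.4, 249.8 and 317.2 CPM in EYFP 1 to 4, and at 600.4, 335.4 and 525.7 CPM in ATG7 1 to 3. The groups overlapped through ATG7 2. Cd74 differed by 0.61 ± 0.195 log2 units (SE, edgeR adjusted p = 0.251, DESeq2 adjusted p = 0.0377, with 0.0752 to 0.656 under the other alternatives). H2-Ab1, a class II beta chain, differed by 0.48 ± 0.158 (SE, edgeR adjusted p = 0.263) and H2-DMa, which helps load peptides, by 0.25 ± 0.0807 (SE, edgeR adjusted p = 0.241). EYFP 3 was the lowest library for the mean of this list, and without it Cd74 was at 0.50, H2-Ab1 at 0.38 and H2-DMa at 0.28, while H2-DMa was at 0.15 without ATG7 3. Microglia can transcribe class II genes as well, and the cells of origin were not tested.

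Lists of the other cells that a CD11b preparation can hold had 0 called genes each (edgeR quasi-likelihood test). The 13 homeostatic microglia genes had a median log2 fold change of 0.04, with Olfml3 at 0.19, P2ry12 at -0.17 and Cx3cr1 at 0.16 (edgeR adjusted p = 0.633, 0.647 and 0.653). The 12 monocyte and neutrophil genes had a median of 0.03, with Plac8 at 1.45, Ly6c2 at 1.47 and Fn1 at 0.35 (edgeR adjusted p = 0.128, 0.330 and 0.472). The groups did not overlap for 1 of the 12, Plac8, where 11.2% of all genes tested had no overlap. Plac8 was at 1.80 to 4.25 CPM in EYFP and 4.70 to 11.4 CPM in ATG7. Its call depended on the fit. The adjusted p was 0.000979 with DESeq2 and 0.0313 with edgeR without ATG7 1, and 0.0999 to 0.536 under the other alternatives. Without ATG7 3, Ly6c2 was at 0.78 and Fn1 at 0.19. The neutrophil gene S100a8 ranged from 5.39 CPM in ATG7 2 to 32.2 CPM in ATG7 3.

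All 12 choroid plexus genes had log2 fold changes below 0, with a median of -0.26 and 4 at an unadjusted p under 0.05, where 5.71% of all genes reached it in that direction. These 12 genes were also measured in the same libraries, so the 4 are not independent. The smallest p was that of Slc4a5 (-0.43, edgeR adjusted p = 0.192, 0.0428 with DESeq2 and 0.0844 to 0.761 under the other alternatives), followed by Prlr (-0.31) and Aqp1 (-0.39). The 5 tested platelet genes had a median of -0.19, with Tubb1 at 1.02, Gp9 at -0.44 and Itga2b at -0.35. The 11 endothelial and mural genes had a median of 0.14, with Kdr at 0.45, Cldn5 at 0.61 and Flt1 at 0.45, and their summed level ran from 553.9 CPM in EYFP 4 to 1198 CPM in ATG7 3. Without ATG7 3 these were 0.21 for Kdr, 0.24 for Cldn5 and 0.21 for Flt1. The 6 tested genes of meningeal fibroblasts had a median of -0.03, with Dcn at -0.61, Col3a1 at 0.46 and Col1a2 at -0.20. The 8 tested neuron genes had a median of -0.23, with Eno2 at -0.36, Gad1 at -0.97 and Prox1 at 0.25 (edgeR adjusted p = 0.362, 0.503 and 0.604). Their mean was 2.05 log2 CPM in EYFP 1, against -0.02 to 1.16 in the other libraries. Gad1 had 7 to 29 counts per library, and without EYFP 1 it was at -0.48 and Prox1 at 0.38. Without EYFP 2, Prox1 was at 0.10. The 10 genes of astrocytes and oligodendrocytes had a median of -0.27, with Aldh1l1 at -0.32, Pdgfra at -0.43 and Mog at -0.48.

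**Figure D4:**
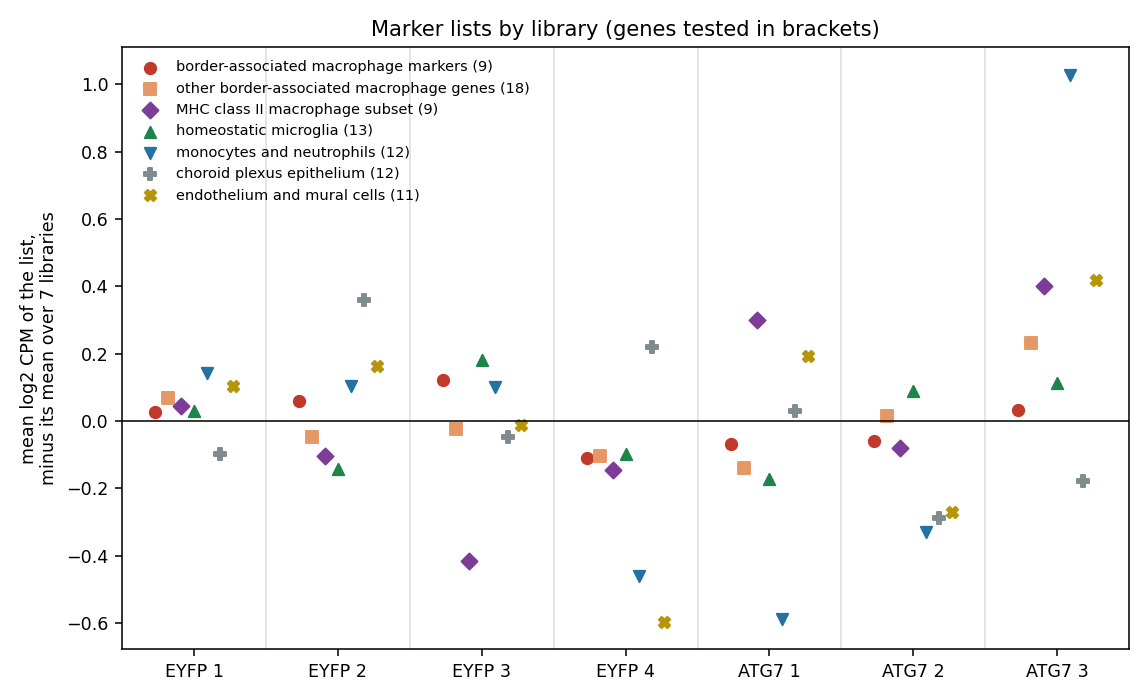
Mean log2 CPM of 7 marker lists in each library, as the difference from the list's mean over the 7 libraries (y axis), with the number of genes in brackets. The border-associated macrophage markers stay near 0 in every library, while the monocyte and neutrophil list is high in ATG7 3 and the MHC class II list is low in EYFP 3.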

How the data were processed

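RNA was measured in CD11b-enriched cells of 4 EYFP and 3 ATG7 libraries, grouped by their titles. The authors deposited raw counts per Ensembl gene for all 7 libraries. The submitters' processing notes name fastp 0.20.1, HISAT2 2.0.5 and featureCounts with the build GRCm38 (mm10), with no parameters; the annotation, strand setting and handling of shared reads are not given in the sources used here. The deposited counts of the 37 mitochondrial genes sum to 0. Symbols and exon lengths came from GENCODE M21, which matched 55141 of 55401 identifiers, leaving 260 unnamed.

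Differences were fitted with edgeR 4.0.16 (R 4.3.3, filterByExpr, TMM factors, robust quasi-likelihood, no covariate) across all genes, checked on simulated counts. CPM are TMM-scaled, with a prior count of 2 for log2 CPM. The SE is the absolute log2 fold change over the square root of F, and 95% intervals use the fit's degrees of freedom. The floor and the CV worked out from counts cover counting error only, while the 95% intervals of the fit also cover the spread between libraries. Alternatives used DESeq2 1.42.0 and limma 3.58.1.

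The 9 markers and the 10 lists of other genes were chosen with earlier results of these data known. The text names every marker, from each list the genes that passed or else the 3 with the smallest p, and the 10 genes most like the markers in pattern. Any other gene was chosen after its values were seen.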

Additional observations from a re-analysis of the deposited data

Results flagged for a closer look

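Among 50 values compared over the 4 EYFP libraries (each marker, the named genes and the mean of each list), 2 had 1 library far from the other 3 by Dixon's test at the 95% level, where chance gives about 2.50. The mean of the monocyte and neutrophil list was 2.02 log2 CPM in EYFP 4, the lowest of its group, and Col1a2 was at 40.6 CPM in EYFP 3. None of the 9 markers was among them.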

How the results depend on the processing

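The number of the 9 markers that passed was 0 under all 14 alternatives. The number of all genes that passed was 297 with no filter on low counts, 585 in DESeq2 and 0 under the replicate block, and 28 to 277 without single libraries. Of the other border macrophage genes 1 passed with no filter (Ednrb), 2 with DESeq2 (Siglec1 and Ednrb), and 0 to 1 without single libraries. The sign turned for markers near 0. With the replicate block Mrc1 was at -0.023 and Lyve1 at -0.015. Without single libraries Mrc1 ran from -0.083 to 0.11, Lyve1 from -0.084 to 0.18, Stab1 from -0.10 to 0.045 and F13a1 from -0.0028 to 0.11, and the median of the markers from -0.08 to 0.02. In all, 117 values of markers kept sign and call and 9 changed sign; among named genes of the lists 408 kept both and 8 gained a call. Of 30 such genes, 17 moved by over 1.5 times without at least 1 library, 10 of them without ATG7 3. The cause was not tested. Tubb1 and Gad1 have no value at a mean CPM of at least 1 and no adjusted p from DESeq2, and are left out of those counts there. The replicate numbers are shared between the groups, but the sources used here do not tie them to a shared animal or batch. Deviations of same-numbered libraries from their group means correlated at -0.06, -0.18 and 0.07 across genes. These correlations cannot decide whether a batch was shared, because the deviations within each small group must sum to 0. Counting error alone gives a CV of at most 3.16% for the markers other than Folr2.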
